A study of Mus musculus with 3 samples.

Results

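Eras and its relatives Hras, Nras, Rras and Rras2 belong to the Ras family of small GTPases. Members were chosen by name, because Eras had been seen to be lower after reversion, so its difference between reverted and unreverted cells is given as a description. The platform's probe annotation gave 1 probe for each of 4 of these 5 genes, out of 16593 genes on the array, and all 4 probes were detected on every array. The expression of Hras was not analysed here.

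Ras proteins are membrane-anchored switches that cycle between a GTP-bound active form and a GDP-bound inactive form. Exchange factors such as Sos1 load GTP, GTPase-activating proteins such as Nf1 promote its hydrolysis, and active Ras engages the RAF kinases, PI3-kinase and the Ral exchange factors. Nras is a classical Ras protein, Rras and Rras2 (also called TC21) form the R-Ras subgroup, and Eras is a Ras protein described in mouse embryonic stem cells that stays GTP-bound without stimulation and signals through PI3-kinase. Signalling from the FGF receptor through Ras and ERK is known to promote exit from the naive state, the pluripotent state of embryonic stem cells.

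RNA of 3 mouse cultures was measured on Illumina bead arrays, with 1 array each. E3R cells are E3 epiblast stem cells after reversion to an ES-like state. They grew on gelatin in KSR medium with 1 µM PD0325901, an inhibitor of the ERK kinase MEK, 3 µM CHIR99021, an inhibitor of GSK3, and 1000 U of leukaemia inhibitory factor (LIF). E3 cells are the unreverted epiblast stem cells (EpiSCs) of the same line, which has a hybrid background. They grew in KSR medium with 5 ng/ml FGF2 on inactivated CF1 mouse embryonic fibroblasts, and were harvested with collagenase IV, with little carry-over of feeders according to the labels. CGR8 embryonic stem cells (ESCs) grew as the E3R cells did, and both were harvested on the dish. All cultures were otherwise untreated. Medium, feeder layer and harvest differed together between E3R and E3 cultures and cannot be told apart, and the line differs in addition between E3 and CGR8 cells.

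With 1 array a group, differences could not be checked against replicates, and p-values are not given. The standard error (SE) of a signal over the beads of its probe covers neither cultures, RNA extracts nor arrays, and the number of arrays limits the precision. Of 25697 probes, 9994 were detected on the E3R array, 10791 on the E3 array and 9860 on the CGR8 array, at a detection p-value under 0.01. Markers of the labelled states were checked. Of 8 naive markers with a probe, Nr0b1 was detected on none of the arrays. The other 7 were all at least 2-fold higher in E3R than in E3 cells, and 0 differed by 2-fold from CGR8 cells. Of 6 primed markers all 6 were at least 2-fold lower in E3R than in E3 cells. Of 4 primed markers with a value against CGR8 cells, Lefty1 was 2.05-fold higher and Krt18 at least 2.37-fold lower in E3R cells.

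The promoter windows of 3 members are shown because Eras and Rras were both lower in E3R cells than in E3 cells while Nras was not. They are RefSeq sequences of GRCm38.p6 and run from 250 bases before to 50 bases after the annotated gene start. Rras has 3 listed windows, of which only the one at the gene start was used, and Eras and Nras have 1 each. Eras lies on chromosome X (minus strand, chrX:7928558-7928857), Rras on chromosome 7 (plus strand, chr7:45017692-45017991) and Nras on chromosome 3 (plus strand, chr3:103058035-103058334). Capitals mark GC boxes, GGGCGG on either strand.
Eras: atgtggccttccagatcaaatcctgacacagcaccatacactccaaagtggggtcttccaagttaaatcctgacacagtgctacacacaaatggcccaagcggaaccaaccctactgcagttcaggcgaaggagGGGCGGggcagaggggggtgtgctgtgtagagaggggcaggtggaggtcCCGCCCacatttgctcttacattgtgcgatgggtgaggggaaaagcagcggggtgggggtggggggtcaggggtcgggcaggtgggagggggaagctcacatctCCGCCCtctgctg
Rras: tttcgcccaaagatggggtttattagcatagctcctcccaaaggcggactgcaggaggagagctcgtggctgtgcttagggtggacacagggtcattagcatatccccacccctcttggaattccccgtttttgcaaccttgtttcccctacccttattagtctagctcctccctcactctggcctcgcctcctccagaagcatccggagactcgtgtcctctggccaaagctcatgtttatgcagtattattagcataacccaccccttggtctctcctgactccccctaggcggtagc
Nras: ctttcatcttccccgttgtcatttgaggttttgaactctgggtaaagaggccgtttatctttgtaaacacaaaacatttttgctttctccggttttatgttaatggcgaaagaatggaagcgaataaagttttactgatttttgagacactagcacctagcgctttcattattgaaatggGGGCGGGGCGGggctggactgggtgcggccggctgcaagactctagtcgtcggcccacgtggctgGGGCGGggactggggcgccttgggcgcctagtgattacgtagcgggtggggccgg

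The windows of Eras and Rras held 8 CpG dinucleotides each, fewer than the 19 and 20 in those of Nras and Rras2 and close to the middle of all windows. The median over 32851 promoter windows was 7 CpG, with quartiles of 3 and 20. The GC content was 60.0% for Eras, 54.0% for Rras, 52.3% for Nras and 60.3% for Rras2, against a median of 52.7%. A GC box was found 3 times in the Eras window, at bases 135, 184 and 288, and 3 times in that of Nras, at bases 181, 186 and 246, where the first pair overlaps by a base. The Rras2 window held 2 and the Rras window held 0, while 35.7% of all windows held at least 1. The octamer ATGCAAAT, the orphan nuclear receptor half-site AAGGTCA, the STAT site TTCNNNGAA, the ETS core CCGGAA, the TATA box TATAAA and CCAAT were each searched on both strands. None of these 6 was found in the windows of Eras, Rras, Nras and Rras2. Their shares among all windows were 1.74%, 4.72%, 8.30%, 14.9%, 13.6% and 37.4%. The E-box CACGTG, in 7.15% of all windows, was found once in the Nras window, and in none of the other 3. The window of Hras, the member without a signal here, held 34 CpG, 3 GC boxes, 1 ETS core and 1 CCAAT box. No binding data were part of the study, and a match is a description of letters.

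Eras had the lowest signals in the cultures that stood in the naive state. Its raw intensity was 248 ± 13.1 in E3R cells, 851 ± 29.7 in E3 cells and 290.5 ± 10.4 in CGR8 cells (SE over beads). After background correction and normalization, its log2 signal was 7.69 in E3R cells, 9.60 in E3 cells and 7.68 in CGR8 cells. The E3 array thus stood alone, and the other 2 arrays were level. The authors' processed intensities had the same order, with 199 in E3R, 773 in E3 and 199 in CGR8 cells.

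Set against E3 cells, Eras was 3.76-fold lower in E3R cells, a log2 difference of −1.91 with a bead SE of 0.12. Among 3967 genes with a negative difference it was in place 196, so that many genes were lower by more. Against CGR8 cells it differed by 1.01-fold in E3R cells (log2 0.01, bead SE 0.12, with an interval from bead error alone of −0.23 to 0.25). In E3 cells it was 3.78-fold higher than in CGR8 cells (log2 1.92, bead SE 0.09). Both larger differences rest on the same E3 array and are not independent of each other. Although Eras is named for embryonic stem cells, and was detected in CGR8 cells, its signal was higher in these epiblast stem cells.

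**Figure D1:**
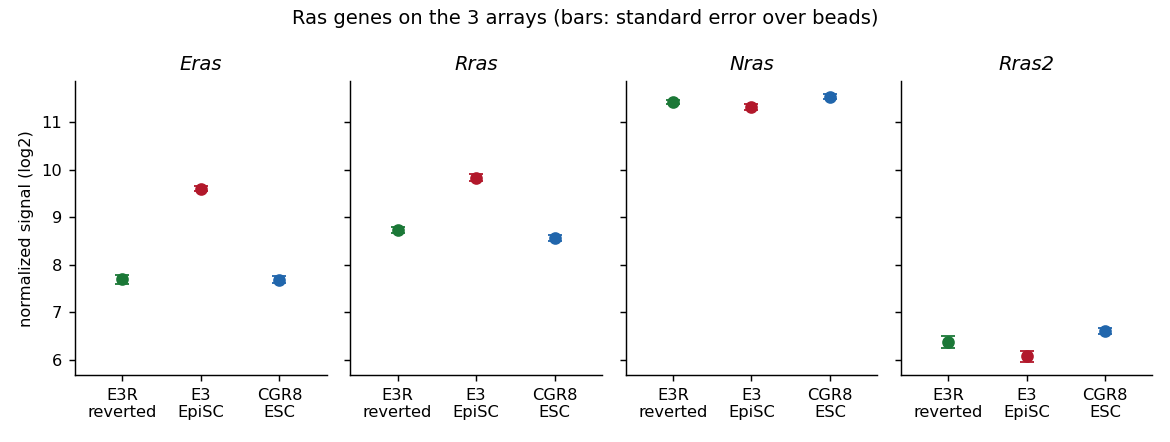
Normalized log2 signal of Eras, Rras, Nras and Rras2 (vertical axis) on the E3R, E3 and CGR8 arrays, 1 array each, with the standard error over beads as bars. Eras stood at 9.60 in E3 cells against 7.69 in E3R and 7.68 in CGR8 cells, Rras was likewise highest in E3 cells, and Nras and Rras2 were lowest there, although Nras was highest there with median scaling.

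Rras, an R-Ras protein that acts on integrin adhesion, had the same shape with a smaller span. Its raw intensity was 434 ± 16.8 in E3R cells, 994 ± 44.2 in E3 cells and 478 ± 20.7 in CGR8 cells, and its log2 signal was 8.73, 9.83 and 8.56 in the same order. The E3 array was again the high one. Rras was 2.15-fold lower in E3R than in E3 cells (log2 −1.11, bead SE 0.10) and 2.41-fold higher in E3 than in CGR8 cells (log2 1.27, bead SE 0.10). E3R cells differed from CGR8 cells by 1.12-fold (log2 0.16, bead SE 0.10, interval from bead error −0.03 to 0.36). Without background correction the difference between E3R and E3 cells was 2.0-fold, at the edge of the threshold.

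Nras, the classical Ras gene among the measured members, was nearly level. Its raw intensity was 2426 ± 76.3 in E3R cells, 2772 ± 103 in E3 cells and 3137 ± 86.9 in CGR8 cells. The log2 signals were 11.42 in E3R, 11.32 in E3 and 11.53 in CGR8 cells, so the largest span among the 3 arrays was 0.21. E3R cells exceeded E3 cells by 1.07-fold (log2 0.10, bead SE 0.08, interval −0.05 to 0.25), and the sign turned with scaling to a common median (log2 −0.20). E3R cells were 1.08-fold below CGR8 cells (log2 −0.11, bead SE 0.07, interval −0.24 to 0.03). E3 cells were 1.16-fold below CGR8 cells (log2 −0.21, bead SE 0.08), a sign that also turned with that scaling (0.09).

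Rras2 was dim, and its order was the reverse of that of Eras and Rras. Its raw intensity was 138 ± 6.55 in E3R cells, 136 ± 6.08 in E3 cells and 173 ± 4.58 in CGR8 cells. Its log2 signal was 6.37 in E3R, 6.07 in E3 and 6.60 in CGR8 cells, above the lowest detected signals of these arrays, 5.06, 4.87 and 5.10. E3R cells were 1.24-fold above E3 cells (log2 0.31, bead SE 0.18, interval −0.04 to 0.66) and 1.17-fold below CGR8 cells (log2 −0.22, bead SE 0.14, interval −0.50 to 0.06). E3 cells were 1.44-fold below CGR8 cells (log2 −0.53, bead SE 0.14, interval −0.80 to −0.26).

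Of the 4 Ras genes, 2 were lower in E3R than in E3 cells by 2-fold or more and 0 were higher. Over all 7726 genes with a value in this comparison, 12.4% were lower and 12.7% higher by that much. Since the set was named for the fall of Eras in this comparison, nothing is read from that count. Between E3R and CGR8 cells 0 of the 4 differed by 2-fold, where 3.35% of 7286 genes did. Between E3 and CGR8 cells 2 of 4 were higher in E3 cells by 2-fold or more and 0 lower, beside 13.9% and 13.4% of 7698 genes.

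**Figure D2:**
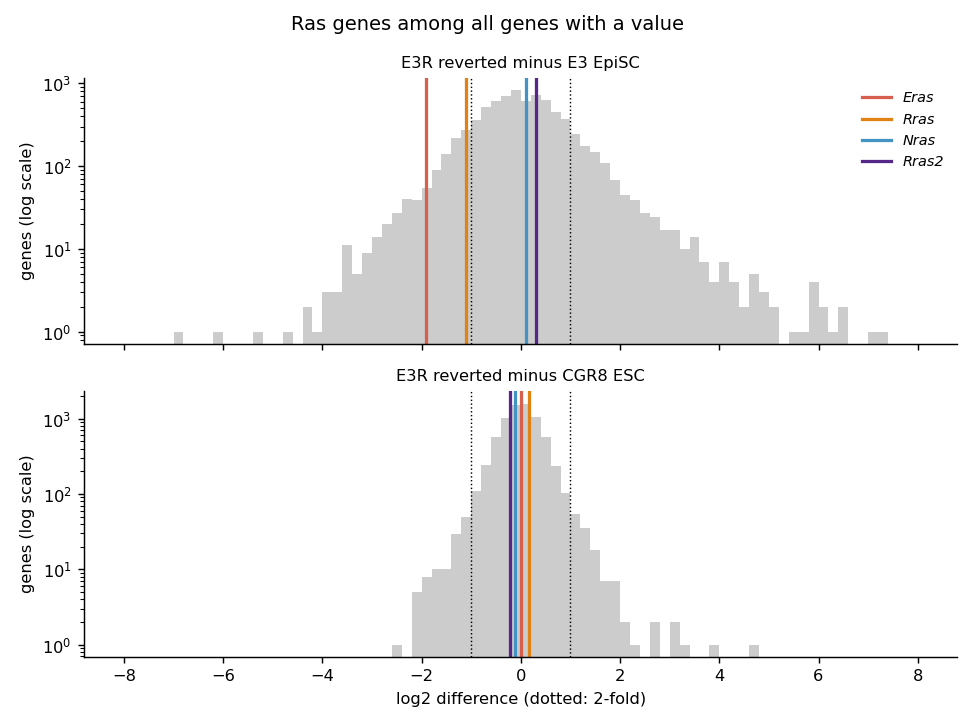
Number of genes (vertical axis, log scale) by log2 difference between E3R and E3 cells (upper panel, 7726 genes) and between E3R and CGR8 cells (lower panel, 7286 genes), with the 4 Ras genes as coloured lines and 2-fold as dotted lines. Eras at −1.91 and Rras at −1.11 lie past 2-fold in the upper panel, and all 4 genes lie within 2-fold in the lower one.

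The fibroblast markers that were detected had their highest signals on the E3 array. Of 14 feeder fibroblast markers on the array, 2 were detected in E3R cells, 6 in E3 cells and 2 in CGR8 cells. The summed normalized signal of all 14, undetected ones included, was 392, 974 and 367 in that order. Undetected markers add a background-level part to each sum, so the sums understate the ratio between arrays. Of 5 markers with a value between E3R and E3 cells, 4 were lower in E3R cells by 2-fold or more (median log2 −1.53), beside 12.4% of all genes. Among them, Thy1 was lower by the most, at least 6.38-fold. Loxl1 and Mmp2 were detected on every array, so also in the cultures on gelatin. The defining collagen genes Col1a1, Col1a2 and Col3a1 were not detected on any array. The part of the feeder layer in the signals of Eras and Rras was not tested. In these bulk samples, fewer cells of a type and less RNA per cell cannot be told apart.

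The genes with profiles most like that of Eras were sought among 6105 genes detected on all 3 arrays, by the Euclidean distance between log2 signals after each gene's own mean was removed. The nearest 5 were Atp10d, a phospholipid-transporting ATPase gene, the dipeptidyl peptidase gene Dpp9, Arfip2, the cell cycle forkhead factor gene Foxm1 and Palm, which encodes the membrane protein paralemmin. Their distances were 0.024 to 0.044. Atp10d had log2 signals of 6.54 in E3R, 8.42 in E3 and 6.50 in CGR8 cells, and Foxm1 had 6.64, 8.49 and 6.58. The genes nearest to Rras were St7l, Pebp1 and Tmem259, at distances of 0.019 to 0.030. Pebp1, which encodes an inhibitor of RAF kinase, also belongs to the cascade described below. Nras was nearest to Xpc, Spint2 and Rbms2, and Rras2 to Crkl, an adaptor gene of receptor signalling, Spin1 and Mrrf. With 3 arrays many genes share such a shape, and the likeness is a description.

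On chromosome X, Eras was flanked by genes that differed in opposite directions. Pcsk1n, the annotated gene next to it on the side of lower coordinates, encodes an inhibitor of a prohormone convertase. Its log2 signal was 5.42 in E3R, 7.23 in E3 and 5.62 in CGR8 cells, so that it was 3.50-fold lower in E3R than in E3 cells (log2 −1.81, bead SE 0.21; −0.99, under 2-fold, without background correction). Hdac6, which encodes a cytoplasmic tubulin deacetylase, is the adjacent annotated gene on the other side. Its probe with the higher mean signal gave 7.46 in E3R, 5.30 in E3 and 7.83 in CGR8 cells. On that probe the signal was 4.44-fold higher in E3R than in E3 cells (log2 2.15, bead SE 0.13). In E3 cells it was the dimmer probe. The second Hdac6 probe gave 6.75, 6.44 and 7.28, a difference between E3R and E3 cells of 0.32, so the probes disagree on the size. The difference of the gene was 1.19 without background correction, 1.23 with the mean of its probes and 0.37 with the authors' processed values. The brightest probe was chosen anew under each setting, and 0.37 lies near the 0.32 of the second probe. The value of 0.37 therefore need not describe the probe that gave 2.15.

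Further out, no neighbour passed 2-fold between E3R and E3 cells, although those on the Pcsk1n side had only bounds. Timm17b, a mitochondrial import gene, and Pqbp1 were detected in E3 cells alone, at log2 signals of 5.20 and 6.0, and were at least 1.10-fold and 1.92-fold lower in E3R cells. Pqbp1 passed 2-fold with median scaling (log2 −1.09) and with the authors' processed values (−1.47). On the Hdac6 side, the next genes with a detected probe were Wdr13 and Rbm3, 14 and 15 places from Eras in the gene order. Wdr13 differed by 0.40 and the RNA-binding protein gene Rbm3 by −0.39 on the log2 scale. With the mean of its 3 probes Rbm3 turned to 0.25.

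**Figure D3:**
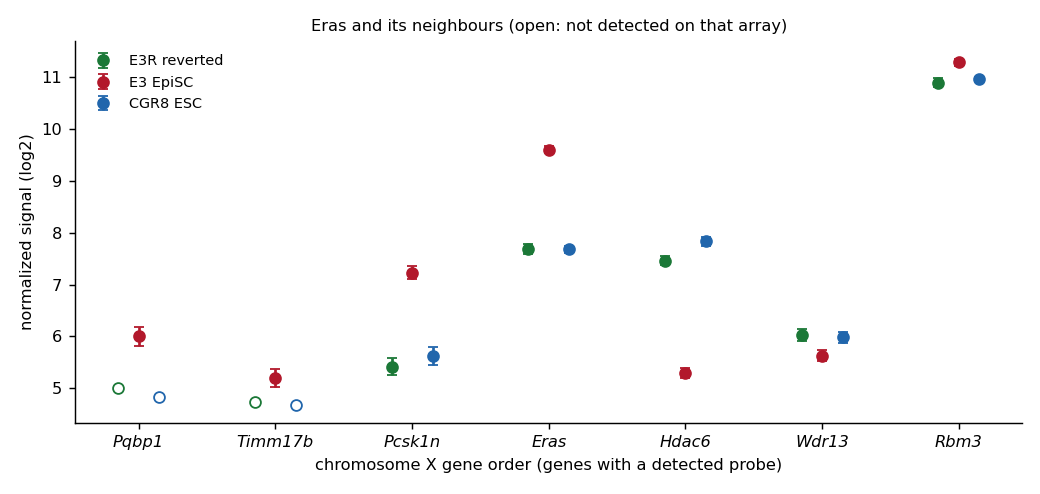
Normalized log2 signal (vertical axis) of Eras and the 3 nearest genes with a detected probe on each side in chromosomal order, on the E3R, E3 and CGR8 arrays, with the standard error over beads as bars and open points where the probe was not detected. Eras and Pcsk1n were highest in E3 cells, at 9.60 and 7.23, and Hdac6 was lowest there, at 5.30.

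Most other Ras subfamily GTPases had differences or bounds under 2-fold. Of 34 genes listed, 30 were on the array and 21 were detected on at least 1 array. Apart from the 4 members, 14 had a value between E3R and E3 cells, of which 1 was higher and 2 were lower by 2-fold or more (median log2 difference −0.17, beside −0.02 over all genes). Mras, a Ras relative that acts with Shoc2 on RAF, was the higher one. Its raw intensity was 206 in E3R, 85.1 in E3 and 299 in CGR8 cells, and it was not detected in E3 cells. It was at least 5.49-fold higher in E3R than in E3 cells (log2 2.46; 1.25 without background correction, 1.62 with an offset of 50). Its direction was thus the reverse of that of Eras.

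The 2 lower genes were Rap2c, a Rap GTPase gene, and Rem2, which encodes a GTPase that restrains calcium channels. Rap2c had log2 signals of 7.55 in E3R, 8.61 in E3 and 7.98 in CGR8 cells and was 2.08-fold lower in E3R than in E3 cells. Rem2 was detected in E3 cells alone and was at least 2.24-fold lower in E3R cells. Both fell short of 2-fold without background correction, at −0.85 and −0.50, as they did at an offset of 50, with −0.94 and −0.69. With median scaling they stood at −1.29 and −1.34. The other Rap2c probes gave −1.40 and −1.96, the latter detected on 2 arrays, and the mean of its 3 probes gave −1.47. Just under the threshold lay Rheb, the GTPase that activates mTORC1, at a log2 difference of −1.0 (−0.41 with the mean of its 2 probes), and Nkiras2 at −0.96. Both passed it with median scaling, at −1.27 and −1.19, and Nkiras2 also with the authors' processed values (−1.04).

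Differences within 2-fold between E3R and E3 cells included those of the Ral GTPase genes, the downstream switches of Ras. Rala differed by 0.46 and Ralb by 0.25 on the log2 scale. Rala was at least 2-fold lower in E3 than in CGR8 cells (log2 −1.10; −0.58 without background correction, −0.75 at an offset of 50). Rap1b differed by 0.06, Rap2a by 0.44, Rit1 by −0.20, Rhebl1 by −0.44 and Rasl11b by 0.79. The second Rasl11b probe gave 1.02, past 2-fold, and the mean of its probes 0.91. Rap2b and Diras1, not detected in E3R cells, were at least 1.68-fold and 1.10-fold lower there than in E3 cells. These bounds do not place them within 2-fold, and Rap2b passed it with the authors' processed values (−1.24). Rasl10a, Rasl11a and Rasl12 were detected in CGR8 cells alone and had no value here. Between E3R and CGR8 cells, 0 of 16 such genes passed 2-fold, 5 of them as bounds. The widest were Rap2b at −0.81, a bound, and Rala at −0.64.

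Among exchange factors and adaptors, Gab1 stood far out. Gab1 encodes a docking protein that links receptor tyrosine kinases to PI3-kinase and to the phosphatase Ptpn11. Its raw intensity was 3485 in E3R, 198 in E3 and 3655 in CGR8 cells, and its log2 signal 11.92, 6.98 and 11.76. It was 30.6-fold higher in E3R than in E3 cells (log2 4.94, bead SE 0.11) and differed by 0.16 from CGR8 cells. The other 7 of 8 genes with a value were within 2-fold, except that Rapgef1 passed it with median scaling (−1.13). Rapgef1, an exchange factor for Rap proteins, was 1.87-fold lower (log2 −0.90; −0.23 with the mean of its probes), Rasgrp1 was lower by 0.40 and Crkl higher by 0.31. The adaptor gene Grb2 differed by 0.08 and Ptpn11 by 0.06.

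Of 6 measured genes for GTPase-activating proteins and Ras inhibitors, 1 was at least 2-fold higher in E3R than in E3 cells and 0 lower. Dab2ip, which encodes a Ras GTPase-activating protein, had log2 signals of 9.32 in E3R, 7.77 in E3 and 8.69 in CGR8 cells. It was 2.93-fold higher in E3R than in E3 cells (log2 1.55, bead SE 0.10). Spred1, an inhibitor of Ras activation of RAF, was 1.92-fold lower in E3R cells (log2 −0.94). It passed 2-fold with median scaling (−1.17) and reached it with the authors' processed values (−1.0). Rasa2 differed by 0.21 and Rasal3 by at least 0.22.

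In the RAF-MEK-ERK cascade, 7 of 16 listed genes had a value, with 2 lower in E3R than in E3 cells by 2-fold or more and 0 higher (median 0.22). Rps6ka3, which encodes the ERK-activated kinase RSK2, had log2 signals of 5.42 in E3R, 6.64 in E3 and 6.07 in CGR8 cells and was 2.33-fold lower. Pebp1 had 6.95, 8.02 and 6.76 and was 2.11-fold lower. Neither passed 2-fold without background correction, at −0.61 and −0.78, or with an offset of 50, at −0.80 and −0.90. Map2k2, which encodes MEK2, was 1.75-fold higher in E3R cells (log2 0.80), and Araf was 1.48-fold higher (log2 0.56). With the mean of 2 probes these came to 0.36 and 0.06, and the second Araf probe gave −0.45, so its probes disagree on the direction.

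In the PI3K-AKT-mTOR cascade, the branch through which Eras is known to signal, 15 of 28 listed genes had a value. In E3R cells 5 of these (33.3%) were higher than in E3 cells by 2-fold or more and 1 (6.67%) was lower (median 0.24). Over all genes 12.7% were higher and 12.4% lower by that much. With median scaling 4 of 17 were higher and 2 lower, and the distance of this list from all genes was not tested. Pik3cb, a catalytic subunit of PI3-kinase, had log2 signals of 8.52 in E3R, 6.55 in E3 and 7.97 in CGR8 cells and was 3.92-fold higher (log2 1.97, bead SE 0.17). Tsc2, which restrains Rheb, had 10.09, 8.13 and 9.96 and was 3.90-fold higher, with 2.04 and 1.96 on its 2 probes. Inpp5d, a phosphatase gene that opposes PI3-kinase, was not detected in E3 cells and was at least 4.94-fold higher in E3R cells (log2 2.30; 1.14 without background correction). The higher genes thus included both activators and inhibitors of the branch.

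Pdpk1, the kinase that activates AKT, was 2.83-fold higher in E3R than in E3 cells on 1 probe (log2 1.5), whereas its second probe gave −0.15. Mlst8, a subunit of both mTOR complexes, was 2.21-fold higher (log2 1.14), with 1.09 to 1.19 on its 3 probes, and stood at 0.99 without background correction and 0.93 with median scaling. Foxo1, a transcription factor inhibited by AKT, was the lower gene. Its log2 signals were 6.42 in E3R, 8.0 in E3 and 7.02 in CGR8 cells, and it was 2.99-fold lower in E3R than in E3 cells (log2 −1.58, bead SE 0.16). Pik3r2, a regulatory subunit of PI3-kinase, lay at −0.94 and passed 2-fold with median scaling (−1.16), with the authors' processed values (−1.14) and with the mean of its probes (−1.04).

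Among Ral, RASSF and other effectors, 12 of 22 listed genes had a value, and 2 were lower by 2-fold or more in E3R than in E3 cells and 0 higher (median −0.29). Rassf1, which links Ras to the Hippo pathway, was 2.54-fold lower (log2 −1.34), and its second probe gave −1.03. Rassf3 was 2.06-fold lower (log2 −1.04; −0.62 without background correction, −0.77 at an offset of 50). Rgl2, a Ral exchange factor, was lower by 0.86 and Rassf7 by 0.84, and both passed 2-fold with median scaling (−1.09 and −1.05). Rassf5 was detected on none of the 3 arrays.

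Of 13 measured genes for lipid processing and trafficking of Ras, 3 were higher and 1 was lower in E3R cells by 2-fold or more (median −0.02). Fntb, the beta subunit of the farnesyltransferase that attaches the lipid anchor, had log2 signals of 11.85 in E3R, 10.51 in E3 and 12.33 in CGR8 cells. It was 2.54-fold higher in E3R than in E3 cells (log2 1.35, bead SE 0.06), whereas Fnta, the alpha subunit, differed by 0.10 on its brightest probe. The other 2 Fnta probes gave −0.58 and −0.60, so the direction of Fnta depends on the probe, and it was −0.18 with median scaling. Lypla1, a thioesterase that can remove palmitate, was 2.44-fold higher (log2 1.29; 0.56 with the mean of its 3 probes). Golga7, a subunit of the palmitoyltransferase for Ras, was 2.20-fold higher (log2 1.14; 0.95 without background correction, 0.92 with median scaling and 0.54 with the mean of its probes). Abhd17a, which removes palmitate from Nras, was 2.34-fold lower (log2 −1.23).

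**Figure D4:**
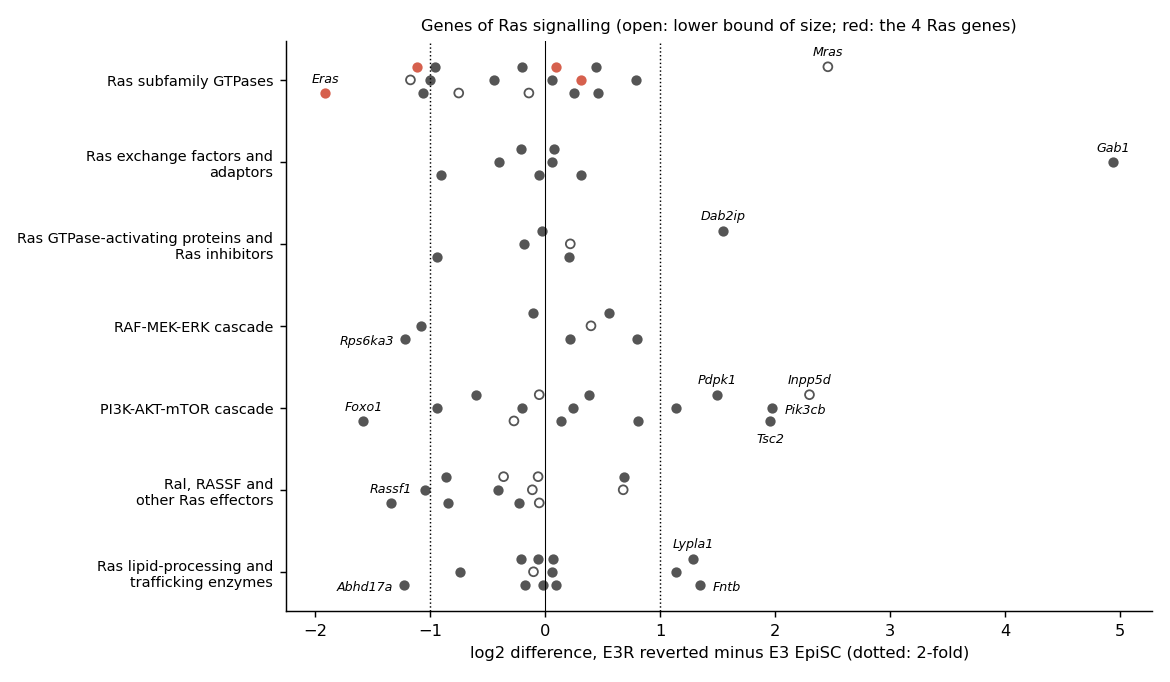
Log2 difference between E3R and E3 cells (horizontal axis, dotted lines at 2-fold) for each measured gene of 7 lists of Ras signalling, with the 4 Ras genes in red and open points for bounds. Most points lie within 2-fold, and Gab1 at 4.94 and Mras at 2.46 or more stand farthest on the higher side.

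Over the 7 lists without the 4 Ras genes, 75 genes had a value between E3R and E3 cells. Of these, 11 (14.7%) were higher and 8 (10.7%) lower in E3R cells by 2-fold or more, near the 12.7% and 12.4% of all genes, and the median was −0.05. Shares so near the background are no result about these lists. Of the 75 values, 12 were bounds under 2-fold. The balance depended on the processing, with 9 higher and 15 lower with median scaling, 9 and 3 without background correction, 11 and 3 at an offset of 50, 12 and 12 with the authors' processed values, and 8 and 10 with the mean of probes. Between E3R and CGR8 cells, 0 of 74 genes passed 2-fold, 13 of them as bounds, where 3.35% of all genes did. With the authors' processed values Rap2b (−1.31) and Tsc1 (−1.18) passed it. Between E3 and CGR8 cells 7 of 79 (8.86%) were higher and 12 (15.2%) lower in E3 cells by that much, beside 13.9% and 13.4% of all genes, and 1 and 8 without background correction or 3 and 10 at an offset of 50.

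**Figure D5:**
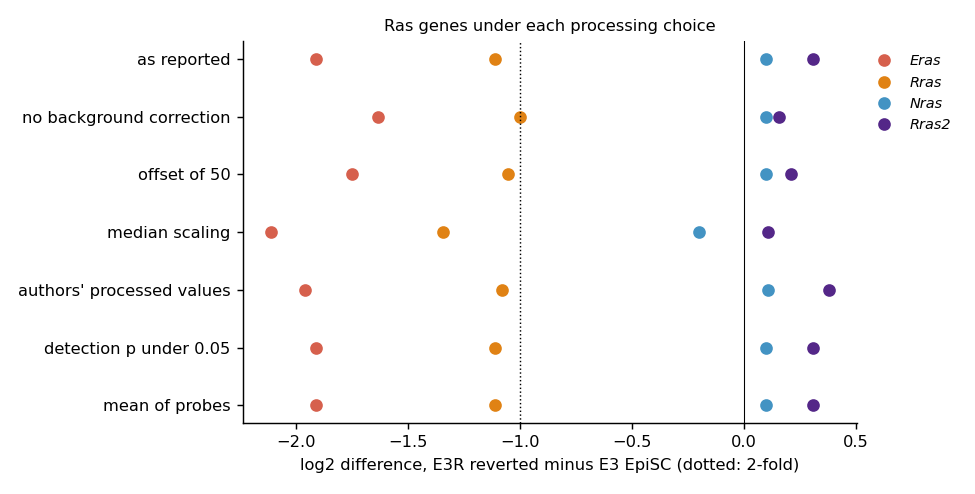
Log2 difference of the 4 Ras genes between E3R and E3 cells (horizontal axis) under each processing choice (vertical axis), with 2-fold dotted. Eras stayed between −2.11 and −1.63 and Rras between −1.34 and −1.0, while Nras turned from 0.10 to −0.20 with median scaling. The alternative detection threshold and the mean of probes could not move these genes, which have 1 probe each, detected on every array.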

How the data were processed

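For each array the authors deposited a detection p-value against negative controls, a raw intensity and the bead standard error of that intensity for every probe, per the file headers. The submitters' processing notes name BeadStudio. Background had not been subtracted, since the lowest raw intensities were 66.5, 70.5 and 69.8 for E3R, E3 and CGR8. The authors' deposited processed intensity values are linear and served as an alternative. Their column medians over the probes with a value were 80.9, 80.0 and 80.0 for E3R, E3 and CGR8. Values were missing for 13115, 13115 and 13113 of 25697 probes, and these were set to the lowest processed value of all arrays. The normalization method of the processed values is not stated. RNA input was 400 ng with 12 h of in vitro transcription, per the labels' protocols.

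Raw intensities were normalized with neqc of limma 3.58.1 in R 4.3.3 (normexp background fitted from detection p-values, offset 16, quantile normalization, log2). Differences and plots were made with Python 3.11.15 with numpy 2.4.6 and pandas 2.3.3. The platform annotation named a gene for 23978 probes, whose symbols were brought up to date through a RefSeq gene table of GRCm38.p6. Of 16593 genes, 4777 had several probes and took the one with the highest mean signal. A gene had a difference where it was detected on at least 1 array of the pair at a detection p-value under 0.01. An undetected signal entered at the lowest detected signal of its array (log2 5.06, 4.87 and 5.10 for E3R, E3 and CGR8) or its own if higher, and the difference is written "at least". Genes detected on 1 array of a pair could only be higher there, and those whose detected signal was no higher than the value entered for the other array were left without a difference (307 genes between E3R and E3, 50 between E3R and CGR8, 356 between E3 and CGR8).

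Bead standard errors were carried to the log2 scale through the fitted curve, and intervals are 1.96 of them to each side. The scripts were tested on simulated data. Members, 7 pathway lists, 4 marker lists and the rules for named genes were chosen with earlier results of these data known. In each list the 4 largest differences between E3R and E3 cells were named, with all detected Ras subfamily genes; Pdpk1, Mlst8, Grb2, Ptpn11, Fnta, Pik3r2 and Rassf5 were named after their values were seen. Alternatives were no background correction, an offset of 50, median scaling, the authors' processed values, detection at 0.05, the mean of probes, a 3-fold threshold and detection on both arrays.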

Additional observations from a re-analysis of the deposited data

How the results depend on the processing

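Eras was at least 2-fold lower in E3R than in E3 cells under all 7 settings, the reported one included (log2 −2.11 to −1.63). It was also at least 2-fold higher in E3 than in CGR8 cells (1.63 to 2.02). The alternative detection threshold and the mean of probes could not move its values, since Eras has 1 probe, detected on every array. Between E3R and CGR8 cells its values ran from −0.08 to 0.01. Without background correction the first 2 differences were smaller, at −1.63 and 1.63. Median scaling moved the median of all genes to −0.20 between E3R and E3 cells and to 0.13 between E3 and CGR8 cells. Under it Rras differed by −1.34 and Nras by −0.20 between E3R and E3 cells, and Nras by 0.09 between E3 and CGR8 cells. Relative to the median of all genes, Nras then stood at 0.00 and −0.04. Rras2 ran from 0.11 to 0.38 between E3R and E3 cells.

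The number of genes at least 2-fold apart between E3R and E3 cells was 1938 as reported, 1024 without background correction and 759 at 3-fold. Between E3R and CGR8 cells it was 244 as reported, 75 without background correction, 114 with an offset of 50, 430 with the authors' processed values and 50 at 3-fold. Between E3 and CGR8 cells it was 2102 as reported, 1111 without background correction and 877 at 3-fold. With median scaling, 35.5% of the calls between E3R and E3 cells were higher, against 50.6% as reported, and 40.9% between E3R and CGR8 cells, against 54.1%. Of the 7 list medians between E3R and E3 cells, that of exchange factors and adaptors moved beyond bead error, to −0.27 with median scaling from 0.00. The cause of these shifts was not tested. No paired analysis was possible because each group had 1 array. Dim probes such as that of Rras2 limit the precision.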
